A study of Mus musculus with 4 samples.

Results

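Small-subunit ribosomal protein genes were examined in chromatin immunoprecipitation sequencing (ChIP-seq) peaks of Pcbp1, a poly-C-binding protein, in primed epiblast-like cells and in naive mouse embryonic stem cells. Members were the RefSeq protein-coding genes of the mouse build GRCm38 whose symbol is Rps followed by a digit, or Rpsa, without the Rps6k kinases and without pseudogenes. This gave 35 of 21887 protein-coding genes. Of the 35, 31 were taken as encoding proteins of the mature small subunit. The other 4 (Rps19bp1, Rps23rg1, Rps27l and Rps27rt) share the name or are related to such a gene, and were listed apart. Whether any of their proteins enters the subunit was not examined. Where the summit of a peak fell no more than 1 kb from the start or the end of a gene's annotation, the gene was said to have a gene-end peak. The rule used symbols and positions only, and no measured value, but it was set with earlier results of these data known.

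The small subunit of the ribosome binds mRNA, holds the decoding centre and scans for the start codon. Its proteins form a head with a beak, a body and a platform around the small-subunit rRNA. Their genes are transcribed in every growing cell, many carry small nucleolar RNAs in their introns, and their mRNAs typically begin with a C followed by a stretch of pyrimidines, the terminal oligopyrimidine (TOP) motif through which mTORC1 controls translation. Pcbp1 is best known as an RNA-binding protein that recognises C-rich stretches, and it also binds single-stranded C-rich DNA.

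All cells were E14 Tg2a mouse embryonic stem cells. The epiblast-like cells (EpiLC) were obtained from the naive culture on fibronectin in N2B27 medium with bFGF, Activin A and KOSR over 48 hours, and the naive cells had been kept for 3 passages on poly-L-ornithine in serum-free N2B27 medium with LIF, the MEK inhibitor PD0325901 and the GSK3β inhibitor CHIR99021. Each state had 1 Pcbp1 ChIP library and 1 input library, and 1 peak list was deposited per state. With 1 library per state there was no replicate error and no test between states, and the lack of a called peak does not show that the protein was not bound.

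The EpiLC list held 3494 peaks and the Naive list 12132. Values are the authors' fold enrichment at the summit over the caller's background, followed by a 95% Poisson interval that covers counting error only. Sequencing depth is unknown. The pileup behind each peak was recovered from its fold and p-value. The lowest background of a list was 7.43 in EpiLC and 4.004 in Naive. This lowest value was taken as the list's genome-wide background below, which was not measured directly. Among marker genes, a gene-end peak was called at 5 of 6 primed genes in EpiLC, against 0 of 6 in Naive, and at 1 of 6 naive genes in EpiLC, against 5 of 6 in Naive. None of the 4 markers of other cell types had one in either list.

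Because the TOP motif lies at the transcript start, the starts of 9 members are shown from 40 bases before to 30 bases from the start (RefSeq, GRCm38.p6, 5′ to 3′ on the transcript strand). Capitals mark a C at the listed start and all pyrimidines that follow it without a break, where at least 4 do. The first pair, Rps10 and Rps6, had a gene-end peak in the EpiLC list alone. Rps18 and Rps21 had one in both lists, Rps15a and Rps27 in the Naive list alone, and Rps27rt in neither. Rps12, with a peak in both lists, and Rps3a1, with none, have no such tract at the listed start. Rps12 does have a run of at least 8 pyrimidines within 30 bases of its listed start, which lies 174 bp inside the annotated gene. Whether the listed starts are those used in these cells was not tested.
Rps10 (chr17:27635215-27635284, minus strand): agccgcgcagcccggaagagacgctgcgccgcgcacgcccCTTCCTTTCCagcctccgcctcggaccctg
Rps6 (chr4:86857338-86857407, minus strand): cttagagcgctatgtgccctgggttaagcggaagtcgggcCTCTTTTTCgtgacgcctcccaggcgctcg
Rps18 (chr17:33955636-33955705, minus strand): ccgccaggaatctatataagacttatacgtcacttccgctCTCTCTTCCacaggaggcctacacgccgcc
Rps21 (chr2:180257339-180257408, plus strand): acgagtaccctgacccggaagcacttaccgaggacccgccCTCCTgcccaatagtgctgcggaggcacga
Rps15a (chr7:118116118-118116187, minus strand): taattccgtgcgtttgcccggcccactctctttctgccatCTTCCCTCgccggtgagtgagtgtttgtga
Rps27 (chr3:90213619-90213688, minus strand): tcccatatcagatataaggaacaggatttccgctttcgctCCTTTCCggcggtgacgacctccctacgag
Rps27rt (chr9:114982710-114982779, minus strand): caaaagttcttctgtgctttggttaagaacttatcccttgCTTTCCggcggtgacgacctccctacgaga
Rps12 (chr10:23787180-23787249, minus strand): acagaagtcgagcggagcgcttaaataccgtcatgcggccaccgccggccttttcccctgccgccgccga
Rps3a1 (chr3:86142639-86142708, minus strand): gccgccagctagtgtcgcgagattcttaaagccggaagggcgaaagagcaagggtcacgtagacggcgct

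Promoter windows were listed for 27 of the 35 members, from 250 bases before the start to 50 after it. Those without one include Rps14, Rps20, Rps27a and Rps29. A TOP tract as defined above began at the listed start of 7 of 27 members (25.9%), against 2.17% of 17492 protein-coding genes with a listed start. These 7 are the ones shown with capitals, and a tract that begins some bases away from the listed start is not counted. The letters CCGGAAG, which Ets factors bind, were on either strand in 11 of 27 windows (40.7%), against 11.9% of all windows. Runs of C were about as frequent as elsewhere: CCCC on either strand was in 24 of 27 windows (88.9%, against 87.2% of all) and CCCCC in 15 of 27 (55.6%, against 53.6%). CCCTCC was in 5 of 27 windows (18.5%, against 42.5%). Every CCCCC also counts as CCCC. The GC content of the windows had the same median, 56.3%, in members and in all genes. Counts for the other motifs, members first, were 51.9% and 46.3% for the GC box GGGCGG, 33.3% and 39.2% for CCAAT, 7.41% and 3.21% for the Yy1 letters AAGATGGC, 3.7% and 3.82% for the Zfp143 letters ACTACAA, 7.41% and 13.3% for TATAAA, and 0% and 7.91% for the E box CACGTG. These matches describe letters in a window and not binding sites.

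Gene-end peaks of Pcbp1 were present at most small-subunit genes in both states. In the EpiLC list 24 of 35 had one (68.6%), beside 5.61% of all protein-coding genes, and in the Naive list 29 of 35 (82.9%), beside 19.3%. Both lists held a peak at 22 of them (62.9%, beside 4.09%). Rps6 and Rps10 were in the EpiLC list alone, 7 in the Naive list alone, among them Rps3, Rps15a, Rps19bp1, Rps20, Rps23rg1 and Rps27, and Rps2, Rps3a1, Rps27l and Rps27rt in neither. All 24 EpiLC members encode proteins of the mature subunit, as do 27 of the 29 Naive members. A peak in Naive was accompanied by one in EpiLC at 75.9% of these genes, against 20.8% of all other genes. The share differed also among genes of like Naive fold, with pileup and peak width not matched. Among genes with a Naive fold between 4.65 and 6.77, the middle range of the members, 12 of 15 members (80.0%) and 381 of 1594 other genes (23.9%) had an EpiLC gene-end peak. The count by state turned with list length. With the Naive list shortened to the 3494 peaks of highest −log10 q, 24 members had a peak in EpiLC, against 17 in Naive and a Naive share of 5.45% over all genes.

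**Figure D1:**
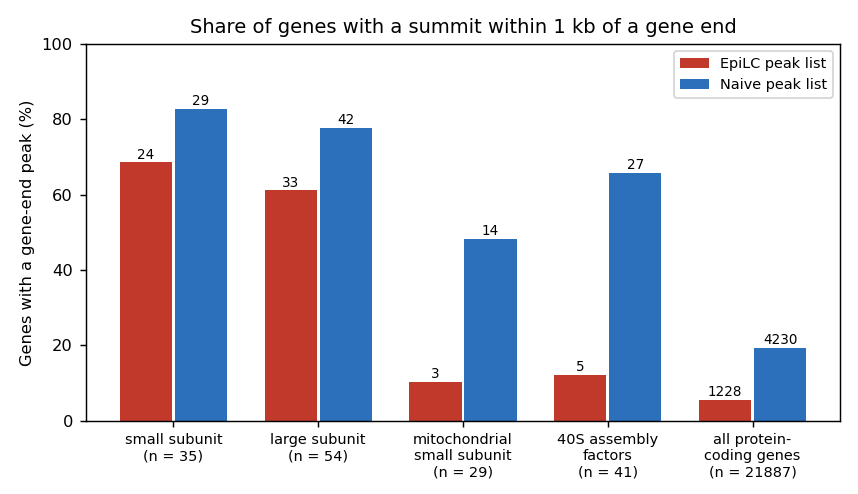
Percentage of genes with a summit within 1 kb of a gene end, in the EpiLC (red) and Naive (blue) peak lists, for 5 gene lists, with the number of genes above each bar. Small-subunit genes reached 68.6% in EpiLC and 82.9% in Naive, while mitochondrial small-subunit genes and 40S assembly factors reached 10.3% and 12.2% in EpiLC.

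Folds differed by member within each list, and are given here by the place of the protein in the subunit. Rps2 and Rps3 line the channel where mRNA enters. Rps3 had no EpiLC gene-end peak and a Naive fold of 6.77 (4.87 to 9.20). Rps2 had no gene-end peak by the rule, but each list held a peak within the gene, at a fold of 3.49 (2.69 to 4.46) in EpiLC and 3.63 (2.49 to 5.14) in Naive. The gene as annotated runs 1942 bp further upstream than its listed transcript start, and relative to that start the summit lay at −353 bp in EpiLC and −411 bp in Naive, on the upstream side. The start-based reading therefore places Rps2 with the members that have a peak in both states.

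The head of the subunit had 8 of 10 genes with a peak at a gene end in EpiLC and 10 of 10 in Naive, with median folds of 2.77 and 4.90. Rps25, which is required for translation from some viral internal ribosome entry sites, had the highest EpiLC fold of all members, 4.16 (3.21 to 5.32), against 5.13 (3.42 to 7.44) in Naive. Its summit also lay within 1 kb of the end of Trappc4. Rps18 had the widest gap of the head genes, at 2.40 (1.82 to 3.10) in EpiLC against 8.53 (6.32 to 11.3) in Naive, and its summit was shared with Vps52. Rps15, whose tail reaches the decoding site, had 3.56 (2.60 to 4.76) in EpiLC against 5.67 (3.96 to 7.90) in Naive. Rps16 had 2.57 against 4.65 and Rps29 2.65 against 4.36, EpiLC first. Rps19, the gene most often mutated in Diamond-Blackfan anaemia in people, had 2.89 (2.11 to 3.87) in EpiLC and 4.25 (2.83 to 6.16) in Naive. Rps28, which lies near the mRNA exit as well, had 3.15 (2.35 to 4.13) and 4.66 (3.15 to 6.67), and its summit was shared with Ndufa7. Rps20 was in the Naive list alone at 5.81 (4.03 to 8.13), and the nearest EpiLC summit lay 12.97 kb from it.

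All 3 genes of the beak had a peak in EpiLC and 2 of them in Naive, where they ranked the first and the fourth of all members by fold. Rps27a, which is translated as a fusion with ubiquitin, had 3.16 (2.42 to 4.05) in EpiLC against 11.2 (8.48 to 14.5) in Naive, the highest Naive fold of any member. Its peak (chr11:29547473-29548158 in EpiLC and chr11:29547281-29548693 in Naive) also had its summit within 1 kb of an end of Clhc1, so the 2 genes cannot be told apart there. Rps12 had 3.96 (3.09 to 5.0) in EpiLC against 8.33 (6.13 to 11.1) in Naive, at peaks of 1105 and 1652 bp (chr10:23786291-23787395 and chr10:23786131-23787782). These were the widest member peaks of each list, set beside member medians of 460.5 and 641 bp. Rps10 had an EpiLC fold of 2.98 (2.16 to 4.02) and the nearest Naive summit lay 4.215 kb outside the gene.

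Genes of the mRNA exit and the platform had a peak at 4 of 6 in EpiLC and 5 of 6 in Naive. Rps26, whose protein touches mRNA just upstream of the start codon, had 3.48 (2.67 to 4.45) in EpiLC against 8.64 (6.31 to 11.6) in Naive. It was the only member whose summit lay outside the gene, at its start, in both lists. Rps21 had 2.54 (1.88 to 3.36) against 6.81 (4.87 to 9.28) and Rps14 had 2.30 (1.69 to 3.06) against 5.87 (4.09 to 8.17), EpiLC first. The Rps21 summit in Naive was shared with Cables2. The Rps14 fold was the lowest of the EpiLC members, and its peaks in the 2 lists did not overlap. Rpsa, also known as the laminin receptor precursor, had 2.52 (1.78 to 3.48) in EpiLC at 554 bp inside the gene from its start. In Naive its higher peak, 3.76 (2.46 to 5.52), lay beyond the 3′ end (−711 bp, where negative means outside the gene), and a second peak of 3.09 (2.12 to 4.37), 437 bp inside the gene, overlapped the EpiLC one. Rps27 was in the Naive list alone at 4.27 (2.75 to 6.38), with a summit shared with Rab13. The summit nearest to Rps3a1 lay 193 kb away in EpiLC and 81.8 kb away in Naive.

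The body of the subunit had 9 of 10 genes with a peak in each list. Rps9 had 3.51 (2.75 to 4.43) in EpiLC against 7.07 (5.01 to 9.71) in Naive. Rps23, a protein of the decoding centre, had 3.39 (2.65 to 4.27) in EpiLC against 7.61 (5.51 to 10.3) in Naive. Rps13, Rps7 and Rps24 had EpiLC folds of 3.17, 3.15 and 3.10, against Naive folds of 5.71, 5.98 and 5.19. Rps4x, on the X chromosome, had 2.69 (1.94 to 3.64) in EpiLC and 4.80 (3.11 to 7.10) in Naive. Rps6 is the protein that S6 kinase phosphorylates downstream of mTORC1. Its gene had 2.82 (2.05 to 3.79) in EpiLC and the nearest Naive summit lay 23.7 kb outside it. Rps15a was in the Naive list alone, at 4.52 (2.96 to 6.63).

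The 4 members listed apart had no gene-end peak in EpiLC. In Naive, Rps19bp1, which encodes a Sirt1 regulator that binds Rps19, had 5.66 (3.83 to 8.09) and Rps23rg1, a gene named for its relation to Rps23, had 3.6 (2.18 to 5.64). The Rps23rg1 peak rested on 17 reads of pileup, the lowest of any member. Rps27l, a paralogue of Rps27 induced by p53, had a Naive peak of 5.60 (3.76 to 8.05) that lay 23 bp from a listed start but 1812 bp from the nearest annotated gene end, so the rule did not count it. Rps27rt, an Rps27 copy of 374 bp, had its nearest summit 4589 kb away in EpiLC and 48.0 kb away in Naive.

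**Figure D2:**
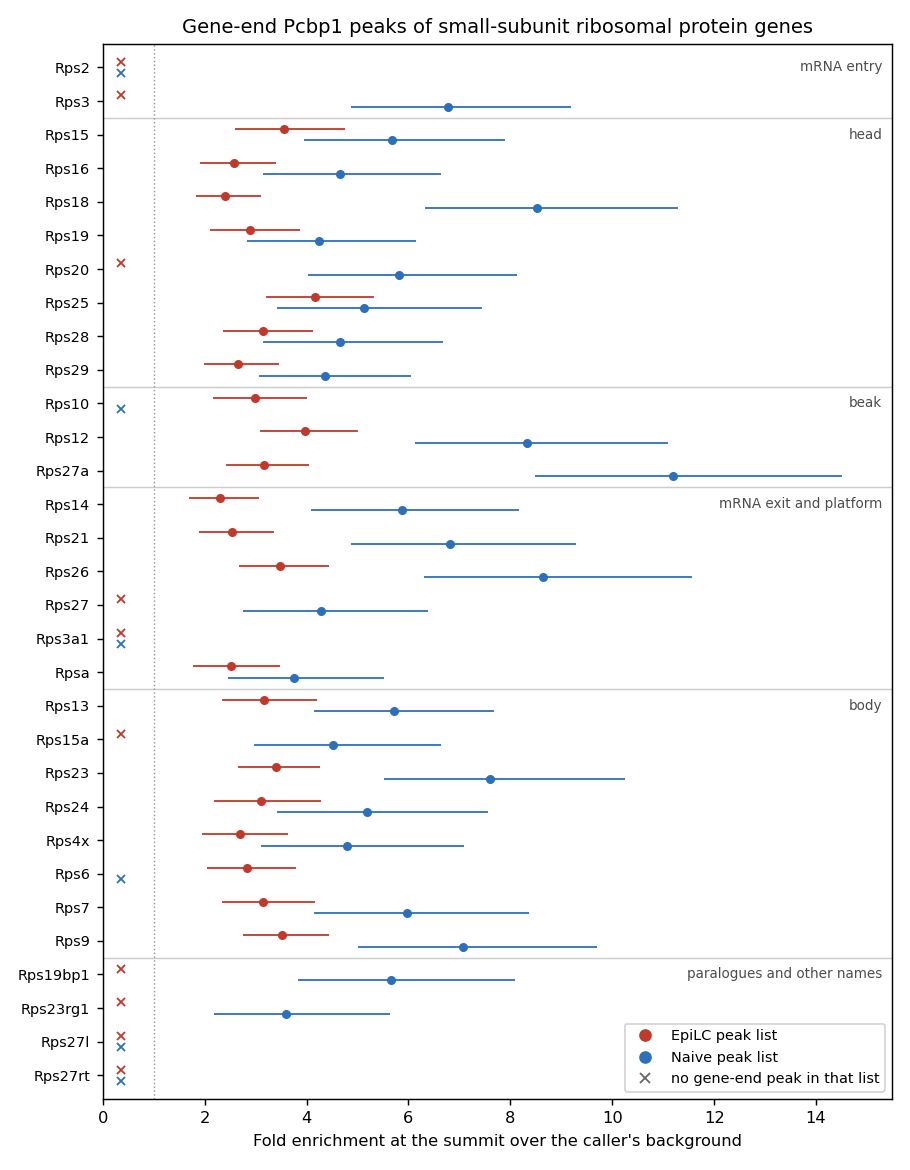
Fold enrichment at the summit of the highest gene-end peak of 31 members in the EpiLC (red) and Naive (blue) lists, with 95% Poisson counting intervals, grouped by place in the subunit; crosses mark a list without a gene-end peak and the dotted line a fold of 1. EpiLC folds lie between 2.30 and 4.16, and at all 19 plotted genes with both peaks the Naive point lies to the right.

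Over all members with a peak, folds ran from 2.30 to 4.16 in EpiLC and from 3.6 to 11.2 in Naive. The medians were 3.13 in EpiLC (quartiles 2.63 and 3.49) and 5.71 in Naive (4.65 and 6.77). Over all protein-coding genes with a gene-end peak they were 3.34 in EpiLC and 4.58 in Naive. In EpiLC 0 of the 24 reached a fold of 5 (beside 12.1% of all genes with a gene-end peak), and in Naive 19 of 29 did (beside 35.3%). Small-subunit genes were thus frequent in the EpiLC list at folds no higher than those of other genes in it.

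At the 22 genes with a peak in both lists, the fold was lower in EpiLC at all 22 (beside 89.9% of all genes with both), with a median EpiLC to Naive ratio of 0.554, against 0.604 over all genes. The ratio was under 1/1.5 at 18 of the 22 (81.8%, beside 60.3%). It ran from 0.281 at Rps18 and 0.283 at Rps27a to 0.811 at Rps25. The EpiLC counting interval lay wholly below the Naive one at 9 of 22 (40.9%), beside 37.1% of all genes with both, which is close to that background.

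The fold divides the pileup by a local background, and that background moved with the state. At the members with a peak it was 1.43 to 3.07 times the genome-wide value in EpiLC (median 2.01) and 1.00 to 1.76 times in Naive (median 1.13). Over all genes with a gene-end peak the medians were 1.85 and 1.13. Raw summit pileup was higher in EpiLC at all 22 genes, at a median ratio of 1.49, beside 1.68 over all genes with both. The share of all genes with a higher EpiLC pileup was not counted. With each pileup set against the genome-wide background of its own list, the median EpiLC to Naive ratio was 0.877 at the members and 0.982 over all genes. On that scale the ratio ranged from 0.646 at Rps27a to 1.38 at Rps25. The size of the EpiLC to Naive difference thus changed with the background that divides the pileup, and the part of depth in it was not tested.

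**Figure D3:**
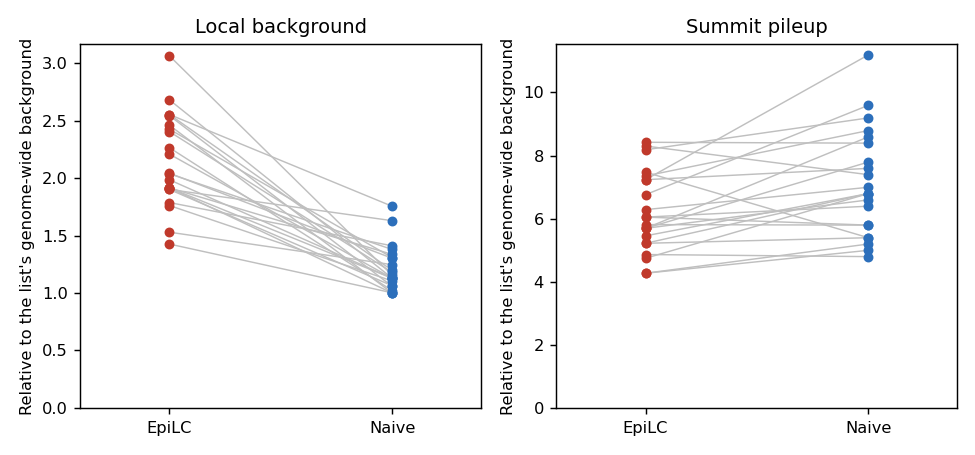
Local background (left) and summit pileup (right), each relative to the genome-wide background of its own list, at the 22 small-subunit genes with a gene-end peak in both lists; lines join the EpiLC (red) and Naive (blue) values of a gene. Local backgrounds lie between 1.43 and 3.07 in EpiLC and between 1.00 and 1.76 in Naive, while the pileups overlap.

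Summits lay inside the genes, just downstream of the start. Measured from the nearest gene end, they were inside at 21 of 24 members in EpiLC (87.5%, beside 54.0% of all genes with a gene-end peak) and at 23 of 29 in Naive (79.3%, beside 56.7%). The median distance inside was 292 bp in EpiLC and 175 bp in Naive, against 54.5 and 72 bp for all other genes. Where a listed start gave the direction of the gene, the summit was nearer to the start than to the 3′ end at 18 of 18 members in EpiLC (beside 91.1% of all genes) and 20 of 21 in Naive (beside 94.1%), the exception being Rpsa. These shares are close to that background. Relative to the nearest listed start, the median summit position was 244.5 bp downstream in EpiLC and 163.5 bp downstream in Naive. For all other genes it was −69 and −10 bp, on the upstream side. More than 100 bp downstream lay 16 of 18 members in EpiLC (88.9%) and 14 of 20 in Naive (70.0%), beside 37.6% and 38.0% of all genes. Chromatin fragments were around 500 bp, so differences of this size are near the resolution of the assay.

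The downstream placement did not separate the states gene by gene. Among the 21 members with both summits at the same end, the EpiLC summit was the deeper one at 10 (47.6%), beside 52.2% of all such genes, and the median shift was −22 bp. Single genes differed more. At Rps14 the summit lay 659 bp inside the gene in EpiLC and 174 bp in Naive, at Rps15 579 and 175 bp, and at Rps7 at 254 bp in EpiLC and −185 bp in Naive.

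**Figure D4:**
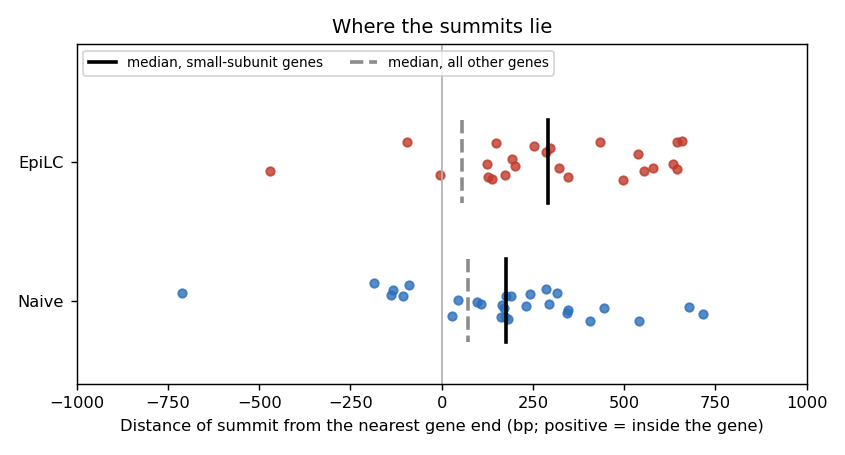
Distance of each member's summit from the nearest annotated gene end, in bp, with positive values inside the gene, for the EpiLC (red) and Naive (blue) lists; points are genes, spread vertically for legibility. The black line is the median of the members (292 and 175 bp) and the dashed grey line that of all other genes (54.5 and 72 bp).

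Among the 21 members with a Naive gene-end peak and a listed start, the summit lay within 250 bases upstream of that start at 5. How often this held over all genes was not counted. Of the 5, Rps19bp1 (−133 bp), no protein of the mature subunit, is not printed. The other 4 are shown for what the window before the start holds. Rps26 had its summit there in both lists (−94 bp from the start in EpiLC and −138 bp in Naive). Rps7, Rps25 and Rps28 had it inside the gene in EpiLC (254, 173 and 139 bp from the start) and upstream in Naive (−185, −107 and −89 bp). Their 250 bases before the start are given as above, with capitals on runs of at least 4 C or 4 G, because Pcbp1 is known for binding C-rich strands. Such runs numbered 0 at Rps26 and 2 at each of Rps7, Rps25 and Rps28. The 250 bases before the Rps26 start hold no such run. Rps27 and Rps27rt also lacked CCCC on either strand in their promoter windows, and 87.2% of all windows held it. The Naive peak of Rps26 was 829 bp wide and reached beyond the 250 bases, and bases outside the promoter window were not read.
Rps26 (chr10:128626507-128626756, minus strand): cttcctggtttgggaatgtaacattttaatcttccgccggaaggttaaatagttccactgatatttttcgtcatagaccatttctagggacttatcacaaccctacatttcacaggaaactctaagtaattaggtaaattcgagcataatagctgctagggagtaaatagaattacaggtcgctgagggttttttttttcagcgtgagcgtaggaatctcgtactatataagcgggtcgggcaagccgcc
Rps7 (chr12:28635954-28636203, minus strand): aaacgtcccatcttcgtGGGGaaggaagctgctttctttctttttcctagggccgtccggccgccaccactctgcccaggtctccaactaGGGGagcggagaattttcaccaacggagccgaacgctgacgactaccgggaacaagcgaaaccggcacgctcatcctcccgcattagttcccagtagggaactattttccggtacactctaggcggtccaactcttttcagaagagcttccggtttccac
Rps25 (chr9:44407464-44407713, plus strand): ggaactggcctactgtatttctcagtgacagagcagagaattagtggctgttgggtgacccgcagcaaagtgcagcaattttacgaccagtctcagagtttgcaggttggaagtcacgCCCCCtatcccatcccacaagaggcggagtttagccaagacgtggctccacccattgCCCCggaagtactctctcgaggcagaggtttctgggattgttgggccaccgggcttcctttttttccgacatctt
Rps28 (chr17:33824563-33824812, minus strand): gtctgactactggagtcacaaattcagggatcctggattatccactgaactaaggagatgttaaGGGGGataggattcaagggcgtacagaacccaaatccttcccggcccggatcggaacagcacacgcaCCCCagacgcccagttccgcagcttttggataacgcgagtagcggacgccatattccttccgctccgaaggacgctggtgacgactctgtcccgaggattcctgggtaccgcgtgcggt

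Peaks were compared between the lists by an overlap of at least 1 bp, each peak counted once. The members' gene ends held 24 EpiLC and 41 Naive peaks. Of the EpiLC peaks, 21 overlapped a Naive peak (87.5%, beside 66.7% of 1083 gene-end peaks of all genes), and of the Naive peaks 21 overlapped an EpiLC peak (51.2%, beside 18.5% of 3843). The Naive peaks that overlapped had a median fold of 5.71, against 4.17 for those that did not, beside 5.52 and 4.35 over all genes. No member had more than 1 gene-end peak in EpiLC, and 9 had 2 or 3 in Naive, among them Rps18, Rps19, Rps20, Rps21, Rps23 and Rpsa. At Rps18 these lay at folds of 8.53, 3.56 and 2.81, and at Rps23 at 7.61, 4.0 and 4.0. The counting intervals of the highest and the next peak overlapped at Rps23 and not at Rps18. At Rps19 they lay closer together, at 4.25, 4.07 and 3.05, as they did at Rps21, at 6.81 and 5.10. The share of all protein-coding genes with more than 1 gene-end peak was not counted.

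For other genes of the ribosome the shares differed by gene list. Large-subunit genes, chosen by symbol like the members, resembled them: peaks lay at the ends of 33 of 54 in EpiLC (61.1%) and of 42 in Naive (77.8%), with a median ratio of 0.548 and summits inside at 90.9% and 88.1%. Of the other pair of small-subunit proteins, Rack1, a scaffold protein on the head, had 3.11 in EpiLC and 6.02 in Naive, and Fau, a ubiquitin-like fusion that yields a protein at the mRNA entry, had none in EpiLC and 4.59 in Naive. The 41 factors that assemble the small subunit in the nucleolus had a peak at 5 in EpiLC (12.2%) and at 27 in Naive (65.9%). Those with an EpiLC peak were Nop56 (3.78 in EpiLC and 5.67 in Naive), Krr1 (3.72 and 4.48), Rcl1 (3.14 and 4.97), Heatr1 (3.49) and Utp4 (3.48), the last pair in EpiLC alone. Mitochondrial small-subunit genes had peaks at 3 of 29 in EpiLC (10.3%) and 14 in Naive (48.3%). Over all protein-coding genes these shares were 5.61% and 19.3%. Of the genes with a Naive peak, 11.1% of the assembly factors and 21.4% of the mitochondrial genes also had one in EpiLC. For the small-subunit and large-subunit genes this share was 75.9% and 76.2%. Over all protein-coding genes it was 21.2%, close to that of the mitochondrial genes. These differences between gene lists are counts from 1 library per state and were not tested.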

How the data were processed

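The authors deposited 1 narrowPeak list per state. Tools named in the submitters' processing notes are fastp, Bowtie2, Picard and MACS2, with the build GRCm38 (mm10) and without versions or roles; the control library of the peak calls is unknown here. Each deposited peak has a fold enrichment, the ratio of summit pileup to background. It also has a −log10 p-value and a −log10 q-value from the authors' caller, the lowest q-value entry being 2.02 in both lists, near a q of 0.01. A further deposited column holds the summit's offset in bp.

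The pileup k and background b were solved from fold = (k + 1) / (b + 1) and a Poisson p-value. A whole k gave the deposited −log10 p within 0.001 at 12132 of 12132 Naive and 3493 of 3494 EpiLC peaks. The code was tested on simulated data. Genes, listed starts and sequences came from RefSeq GRCm38.p6, and all 41 assembly factors matched by symbol. Where a gene had several gene-end peaks the highest fold was used. Computation used scipy 1.17.1, pandas 2.3.3 and numpy 2.4.6 under Python 3.11.15, and plots matplotlib 3.10.9. Named genes are all members, with values for the 5 highest in each list, those in 1 list only and those sharing a peak; some members are counted but not reported here by name. The members, lists and motifs were chosen with earlier results of these data known. Pyrimidine runs, windows around listed starts and the printed sequences were picked once the data had been seen.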

Additional observations from a re-analysis of the deposited data

How the results depend on the processing

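Of 37 values under alternative settings, 29 stayed within 1.5 times the reported count or within the counting interval. Some of the 29 could not move. Shortening the Naive list leaves the EpiLC count as it was. No EpiLC member had more than 1 gene-end peak, so taking the nearest peak there changes nothing. At a fold of at least 5 the members with a gene-end peak were 0 in EpiLC, 19 in Naive and 0 in both, beside 0.676%, 6.83% and 0.402% of all genes. With the Naive list shortened to 3494 peaks they were 17 in Naive (beside 5.45%) and 14 in both (beside 2.40%), and 12 peaks of each list overlapped the other list. The EpiLC to Naive ratio was 0.877 on summit pileup over the genome-wide background. With a window of 500 bp, 17 members had a peak in EpiLC (beside 4.27%) and 28 in Naive (beside 16.4%). Measured from listed starts, 19 of 27 members had a peak in EpiLC (70.4%, beside 5.81% of all genes) and 23 in Naive (85.2%, beside 20.6%). No paired analysis was possible because each group has 1 library, and for the same reason no replicate could be left out. Recovered pileups of 35 to 70 at the members in EpiLC and 17 to 55 in Naive limit each fold to the intervals given.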

Other observations

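Several members host small nucleolar RNA genes. The share of hosts among all protein-coding genes was not counted. Of the 35, 10 contain at least 1 annotated snoRNA gene, among them Rps2, Rps3, Rps3a1, Rps12, Rps13, Rps16, Rps20 and Rpsa. Gene-end peaks were found at 6 of these hosts in EpiLC and 8 in Naive, and at 18 and 21 of the 25 other members. Median folds were 3.39 in EpiLC and 5.82 in Naive at the hosts, against 3.04 and 5.66 at the others. In Rps20 the Naive summit lay 65 bp from the snoRNA gene. In Rps12 the nearest snoRNA gene lay 344 bp from the summit in EpiLC and 524 bp in Naive.

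Copies of these genes in the genome were mostly without peaks. The share over all annotated pseudogenes was not counted, so the numbers do not set these copies apart from others. Of 122 annotated Rps pseudogenes, 0 had a summit within 1 kb in EpiLC and 2 in Naive (1.64%). These were Rps4l, on chromosome 6, at a fold of 5.40 (3.59 to 7.81), with the summit at −73 bp (negative outside the copy), and Rps18-ps3 at 4.20 (2.64 to 6.37), at −667 bp. The placement of reads that match several copies is not known here, and its part in these counts was not tested.

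A run of at least 8 pyrimidines within 30 bases of the listed start was found at 13 of 27 members (48.1%), against 22% of all protein-coding genes with a listed start.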
